A study of Mus musculus with 6 samples.

Results

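Transcripts of 10 genes that organize the neuromuscular synapse were followed in diaphragm muscle of mouse embryos, out of 23073 genes with a value in every library. The genes were taken as a list of names: Agrn, Lrp4, Musk, Dok7, Rapsn, Ache, Colq, Etv5, Nes and Prkar1a. No measured value entered the rule, but the list was chosen with earlier results of these data known. All 10 were above the value that marks a gene without reads in all 6 libraries, and all 10 passed the filter on low values in each comparison.

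The neuromuscular synapse forms where a motor axon meets a muscle fiber. Agrin released by the nerve binds Lrp4 on the muscle surface, which activates the receptor tyrosine kinase MuSK, and the adaptors Dok7 and rapsyn then gather acetylcholine receptors beneath the terminal. Acetylcholinesterase, held in the cleft by its collagen tail ColQ, breaks down the transmitter, and nuclei under the synapse transcribe a set of synaptic genes to which the transcription factor Etv5 contributes.

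RNA was sequenced from diaphragm at E14.75 (embryonic day) in 3 groups of 2 libraries. The erbB3 WT group, with the replicate numbers 5 and 6, and the erbB3 mutant group, with the numbers 1 and 2, were whole muscle. The mutation was constitutive, so it was present in every cell of the embryo and not in Schwann cells alone. ErbB3 is a receptor for neuregulin that Schwann cells need, and the mutant muscle was described by the submitters as without these cells. The third group, Wnt1-Ribotag 1 and 2, carried erbB3 WT alleles, Wnt1-Cre and the Ribotag allele, which puts a hemagglutinin tag on ribosomes of cells with Cre activity and of their descendants. Its RNA was recovered with antibodies to hemagglutinin, and each library was a pool of 4 diaphragms of a litter. The study's methods describe the litter as homogenized before genotyping, which found Cre in only some of the embryos, and whether tissue without Cre entered the pools is not given in the sources used here. Wnt1-Cre acts in the neural crest, from which Schwann cells and neurons of peripheral ganglia arise. Far less RNA went into these libraries than into those of whole muscle, so that the type of RNA, the amount of RNA and the pooling cannot be told apart in any comparison with them.

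The values were RPKM, which are reads scaled by gene length and by the number of mapped reads, so that levels can be compared between genes. Depth, read from the values of microRNA genes without reads, ranged from 100178863 mapped reads in WT 5 to 230216660 in mutant 2. At these depths the fewest reads estimated for a member over its longest transcript were about 822, for Musk in Wnt1-Ribotag 1. Erbb3 itself did not tell the genotypes apart, with 16.5 and 15.8 RPKM in WT, 21.5 and 11.9 in the mutant and 19.5 and 25.3 in Wnt1-Ribotag muscle. The Schwann cell transcription factor Sox10 did by its levels, with 2.89 and 2.16 RPKM in WT against 0.0085 and 0.018 in the mutant. It reached 15.5 and 32.2 RPKM in Wnt1-Ribotag. The summed RPKM of 16 skeletal muscle markers was 3812 and 3522 in Wnt1-Ribotag, against 3361 to 4179 in WT and 5006 to 7152 in mutant muscle. In the Wnt1-Ribotag libraries, labelled as Schwann cell RNA, this sum thus lay within the range of whole WT muscle. Single markers lay on both sides of WT. Of the 16, 4 were lower without overlap (Myog, Mylpf, Ryr1 and Tnni1), beside 31.0% of all genes. Another 4 were higher without overlap (Myh3, Myh8, Tnnt3 and Mb), beside 23.3%. Mutant 2 was below mutant 1 in all 10 members, and the genotype differences are therefore also given without it where it decided their size.

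Promoter sequences are shown for Musk and Etv5, each with 1 window that held the E-box CAGCTG, a motif bound by myogenic factors and known from promoters of synaptic genes. Windows were the 250 bases before each start site in RefSeq on GRCm38.p6, of which there were 15 for 7 members. Both strands were searched for CAGCTG and for the N-box CCGGAA, the site of ETS factors in synaptic promoters. The E-box was found in 4 windows and the N-box in 1, against 13.0% and 12.0% of 32851 promoters with each motif. The windows of Musk (chr4:58285712-58285961, plus strand, motif starting 68 bases before the start site) and Etv5 (chr16:22439571-22439820, minus strand, 207 bases before it) are given 5′ to 3′ with the E-box in capitals. The other matches, E-boxes in 2 windows and the N-box in 1, were in windows of Prkar1a, which are not shown. A match describes the letters only, and binding was not measured.
Musk: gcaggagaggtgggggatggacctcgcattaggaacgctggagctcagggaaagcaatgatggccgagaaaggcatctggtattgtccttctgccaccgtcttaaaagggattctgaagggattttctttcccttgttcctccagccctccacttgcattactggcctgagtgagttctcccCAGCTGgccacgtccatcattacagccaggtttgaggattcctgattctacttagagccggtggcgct
Etv5: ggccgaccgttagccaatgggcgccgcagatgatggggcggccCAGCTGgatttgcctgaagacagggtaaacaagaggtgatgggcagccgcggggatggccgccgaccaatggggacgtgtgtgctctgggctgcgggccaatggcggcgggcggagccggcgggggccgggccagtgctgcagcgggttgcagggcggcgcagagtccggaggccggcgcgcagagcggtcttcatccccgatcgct

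In WT muscle the members spanned a wide range of levels, compared here as RPKM, which are per length. Prkar1a, the regulatory subunit of protein kinase A whose transcript gathers near synaptic nuclei, was highest with 114.9 ± 0.710 RPKM (SD, n = 2). Nes, the intermediate filament protein nestin of young muscle fibers, followed with 79.5 ± 6.93. Agrn had 37.3 ± 1.34, Rapsn 21.9 ± 1.52, Etv5 16.2 ± 2.29, Ache 11.2 ± 1.30 and Dok7 10.8 ± 1.44 RPKM. Lrp4 had 7.44 ± 0.268, Musk 3.60 ± 0.0599 and Colq 3.49 ± 0.0912 RPKM. Among neighbours in this order, the WT libraries overlapped for Ache and Dok7 alone. In percentiles of 14052 genes, Prkar1a stood at 96.7 and Colq at 26.9. The receptor kinase and the collagen tail were thus the least abundant of the transcripts, while agrin stood at the 88.1 percentile. The order was kept in the mutant down to Etv5, with Agrn and Rapsn overlapping, and from Etv5 to Colq each neighbour overlapped the next. In Wnt1-Ribotag libraries the order ended with Colq above Musk, and these did not overlap.

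**Figure D1:**
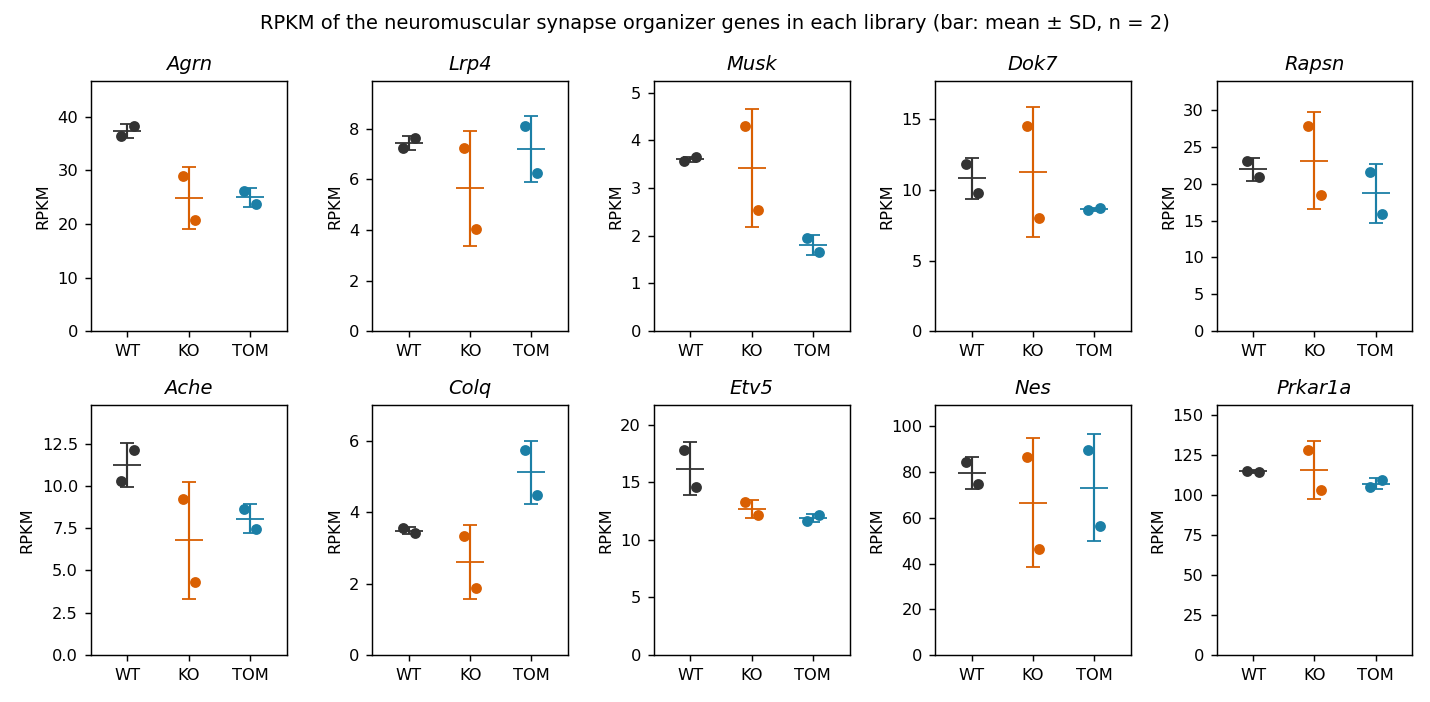
RPKM (linear vertical axes, each from 0) of the 10 genes in each library of erbB3 WT, erbB3 mutant (KO) and Wnt1-Ribotag (TOM) muscle. Each point is a library, the long horizontal line is the mean and the bar is ± SD with n = 2. Agrn sits at 36.4 and 38.3 RPKM in WT and at 28.9 or lower in the other libraries, and Musk is lowest in the Wnt1-Ribotag libraries at 1.96 and 1.66 RPKM.

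The first comparison asked whether transcripts of these genes differed between muscle with and without Schwann cells. None of the 10 members passed an adjusted p of 0.05 (limma across all genes, Benjamini-Hochberg), where 24 of 14052 genes, or 0.171%, did. At an unadjusted p under 0.05 there were 2 members, Agrn and Ache, both lower in the mutant, against 12.0% of all genes in either direction and 9.66% lower. Libraries of the genotypes did not overlap for 4 members that were lower in the mutant (Agrn, Ache, Colq and Etv5) and for 0 that were higher, against 37.4% and 12.7% of all genes. Below 0 were 7 members and 67.0% of all genes. The members' median log2 fold change was -0.33 and that of all genes -0.10.

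Markers of other cells differed between the same libraries. The summed RPKM of 14 Schwann cell markers was 63.5 and 63.7 in WT and 38.1 and 25.1 in the mutant, and all 12 tested had a log2 fold change below 0, 11 of them without overlap. Of these, 3 passed the adjusted threshold in limma, Sox10 and Fabp7 among them, beside 0.171% of all genes. Sox10 passed the filter on low values through WT alone, so that it had to be lower in the mutant. Without a filter, and in a fit of all 6 libraries, 0 genes passed. The sum of 10 hepatocyte markers was 520.3 and 160.2 in WT and 21.01 and 12.8 in the mutant, and that of 7 endothelial markers was 48.5 and 53.1 against 53.6 and 41.6. For 13 neuron markers the sum was 16.7 and 78.6 in WT and 10.2 and 14.3 in the mutant, and 8 of the 8 tested had a log2 fold change below 0, with a median of -1.46. Sums of skeletal muscle markers were higher in both mutant libraries, as given above. Of the 16, 7 were higher without overlap, beside 12.7% of all genes. Actn2, Neb, Ryr1 and Des had log2 fold changes below 0, as had 67.0% of all genes. The part of these cells in the member differences was not tested, and in bulk RNA fewer cells of a type and less RNA per cell cannot be told apart.

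Agrn (ENSMUSG00000041936, chr4:156165290-156197488, minus strand, GRCm38), the ligand, had 36.4 and 38.3 RPKM in WT and 28.9 and 20.8 RPKM in mutant muscle. Both mutant libraries were below both WT libraries. The values are per gene over whole muscle, so that neither the cells nor the splice forms of agrin behind them, the nerve's included, can be told apart. The log2 fold change was -0.60 ± 0.17 (SE; 95% confidence interval -0.99 to -0.20), with an adjusted p of 0.297 by limma. Without mutant 2 the fold change was -0.36 and without mutant 1 it was -0.83. It was -0.23 once genes were centred by transcript length and GC content, as described below for mutant 2. Within a library, Agrn relative to Prkar1a was 0.315 and 0.334 in WT, 0.225 and 0.202 in the mutant, and relative to Rapsn it was 1.58 and 1.83 against 1.04 and 1.13. Relative to Lrp4 it overlapped between the genotypes, with 5.01 and 5.01 in WT and 3.98 and 5.15 in the mutant. These ratios were chosen after the values were seen and are given as a description.

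The receptors overlapped between the genotypes. Lrp4 (ENSMUSG00000027253, chr2:91457511-91513779, plus strand), the agrin receptor, had 7.25 and 7.63 RPKM in WT and 7.26 and 4.03 RPKM in the mutant. Musk (ENSMUSG00000057280, chr4:58285960-58374303, plus strand), the kinase, had 3.56 and 3.64 RPKM in WT and 4.30 and 2.55 RPKM in the mutant. For both genes mutant 2 held the lowest value, while mutant 1 lay within the WT range for Lrp4 and above it for Musk. The log2 fold change of Lrp4 was -0.42 ± 0.24 (SE; interval -0.98 to 0.13; limma adjusted p = 0.470) and that of Musk -0.10 ± 0.22 (-0.61 to 0.41; adjusted p = 0.849). Without mutant 2 the fold change of Lrp4 was -0.033 and that of Musk 0.23. Without mutant 1 they were -0.81 and -0.43, so that the value of Lrp4 came near the -0.83 of Agrn in the same setting, and whether the genes differ in their change was not tested. The centring gave -0.10 for Lrp4 and 0.02 for Musk.

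The adaptors had means that lay close together. Dok7 (ENSMUSG00000044716, chr5:35056766-35087839, plus strand), which activates MuSK from within the cell, had 11.8 and 9.80 RPKM in WT and 14.5 and 8.01 RPKM in the mutant. Rapsn (ENSMUSG00000002104, chr2:91035620-91045729, plus strand), which anchors the receptor, had 23.0 and 20.9 RPKM in WT and 27.8 and 18.4 RPKM in the mutant. In each case mutant 1 lay above both WT libraries and mutant 2 below both. The log2 fold changes were 0.0047 ± 0.25 for Dok7 and 0.05 ± 0.20 for Rapsn, and intervals of -0.58 to 0.59 and of -0.40 to 0.50 leave room for changes of either sign. Without mutant 2 they were 0.41 and 0.34, and without mutant 1 they were -0.40 and -0.24. Over other ways of processing that keep all libraries, the centring included, they ran from 0.0029 to 0.22 for Dok7 and from 0.046 to 0.15 for Rapsn.

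Of the enzyme and its anchor, Ache (ENSMUSG00000023328, chr5:137287519-137294466, plus strand) had 10.3 and 12.1 RPKM in WT and 9.25 and 4.34 RPKM in the mutant. Colq (ENSMUSG00000057606, chr14:31523082-31591343, minus strand) had 3.55 and 3.42 RPKM in WT and 3.34 and 1.88 RPKM in the mutant. Neither gene overlapped between the genotypes, but mutant 1 lay just below WT in both and mutant 2 far below. Ache had a log2 fold change of -0.77 ± 0.29 (-1.45 to -0.09), with a limma adjusted p of 0.392. Without mutant 2 it was -0.26, without mutant 1 it was -1.27, and with the centring -0.49. Colq had a log2 fold change of -0.40 ± 0.23 (-0.93 to 0.13; limma adjusted p = 0.470), which was -0.06 without mutant 2, -0.74 without mutant 1 and -0.13 with the centring. Exons of Ache share 98 bases with Gm42456 on the opposite strand and those of Colq 199 bases with Gm49387 on the same strand, and how the counting treated these reads is not given in the sources used here.

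Among the transcripts known from synaptic nuclei, Etv5 (ENSMUSG00000013089, chr16:22381309-22439719, minus strand) had 17.8 and 14.6 RPKM in WT and 13.3 and 12.1 RPKM in the mutant. Nes (ENSMUSG00000004891, chr3:87971078-87980451, plus strand) had 84.4 and 74.6 RPKM in WT and 86.5 and 46.5 RPKM in the mutant. Prkar1a (ENSMUSG00000020612, chr11:109649405-109669656, plus strand) had 115.4 and 114.4 RPKM in WT and 128.4 and 103.1 RPKM in the mutant. Etv5 was lower in both mutant libraries, while Nes and Prkar1a overlapped. The log2 fold changes were -0.33 ± 0.15 for Etv5 (-0.68 to 0.01; limma adjusted p = 0.420), -0.32 ± 0.26 for Nes (-0.92 to 0.28; adjusted p = 0.577) and 0.0017 ± 0.15 for Prkar1a (-0.35 to 0.36; adjusted p = 0.997). With the centring they were -0.08, 0.0052 and 0.03. Without mutant 2 the fold change of Nes was 0.12 and that of Prkar1a 0.16, while Etv5 was at -0.27. Without mutant 1 they were -0.76, -0.16 and -0.39. Etv5 was at -0.19 without WT 5 and at -0.47 without WT 6.

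The mutant libraries differed from each other in the same direction for all members. All 10 were lower in mutant 2 than in mutant 1, against 60.4% of 14052 genes. The difference ranged from -0.12 for Etv5 to -1.01 for Ache on the log2 scale, beside a median over all genes of -0.07. All 16 skeletal muscle markers were lower in mutant 2 as well, and their summed RPKM was 5006 against 7152. Over 5 equal groups of genes by length of the longest transcript, the median difference of mutant 2 from mutant 1 went from 0.07 in the shortest to -0.19 in the longest. By GC content it went from 0.05 in the lowest group to -0.23 in the highest, and 8 members were in the upper 2 groups of GC. Between the WT libraries the medians were -0.07 to 0.14 by length and 0.17 to -0.05 by GC. Compared with genes of like length and GC, 9 members were still lower in mutant 2 than the median of those genes, and the exception was Etv5. For Agrn the difference was -0.47 and that of like genes -0.44, whereas for Ache the values were -1.01 and -0.28. The part of length, GC content and muscle content in the genotype differences was not tested. Centring each library within 25 cells of length and GC, a step added after the data were seen, left 0 members and 0.0285% of all genes past the threshold in limma.

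**Figure D2:**
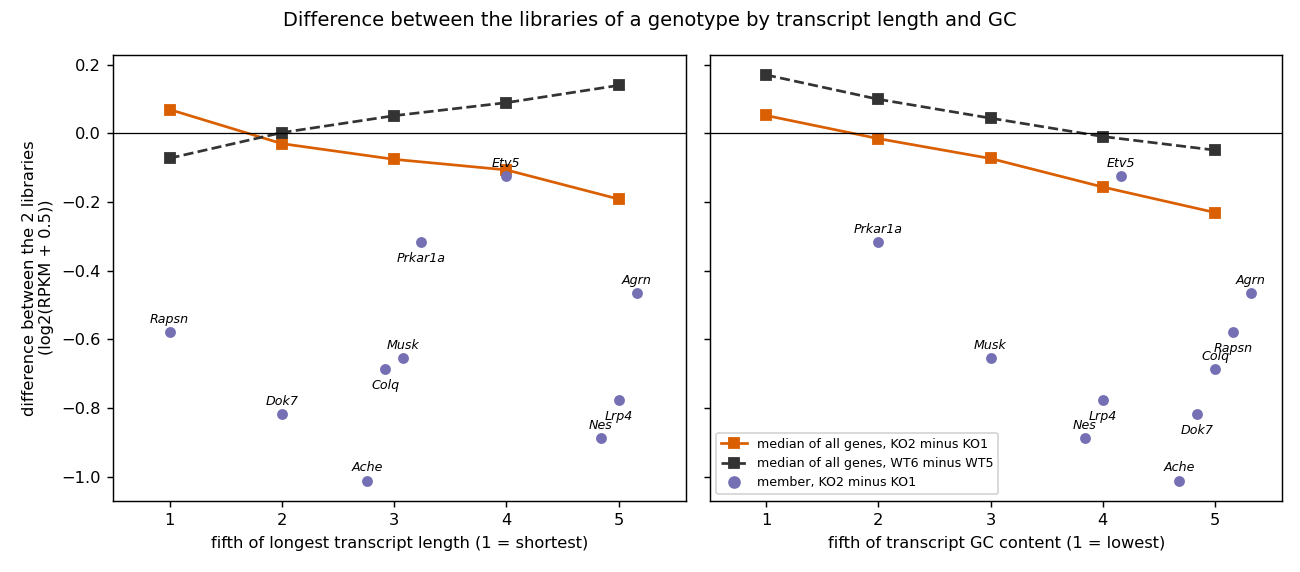
Difference between libraries of a genotype on the log2(RPKM + 0.5) scale (vertical axis) by 5 equal groups of genes by transcript length (left) and GC content (right). Squares are medians of all genes tested, orange for mutant 2 minus mutant 1 and black for WT 6 minus WT 5, and purple points are the 10 members, spread sideways within their group for legibility. The mutant medians fall to -0.19 in the longest and -0.23 in the most GC-rich genes, and the members lie between -0.12 and -1.01.

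The second comparison set ribosome-bound RNA of Wnt1-Ribotag muscle against whole WT muscle. No member passed an adjusted p of 0.05 in limma, where 1 of 14418 genes (0.00694%) did. Unadjusted p was under 0.05 for 2 members, Musk and Agrn, both lower in Wnt1-Ribotag, against 19.5% of all genes in either direction and 11.3% lower. Libraries did not overlap for 6 members that were lower (Musk, Agrn, Dok7, Ache, Etv5 and Prkar1a) and 1 that was higher, Colq, against 31.0% and 23.3% of all genes. Below 0 were 9 members and 54.4% of all genes. The median log2 fold change was -0.27 for the members and -0.05 for all genes.

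Musk had 1.96 and 1.66 RPKM in Wnt1-Ribotag, against 3.56 and 3.64 RPKM in WT. Both Wnt1-Ribotag values lay below all 4 of whole muscle, and the ratio of means to WT was 0.502. The log2 fold change was -0.83 ± 0.22 (-1.39 to -0.27), with a limma adjusted p of 0.184. Agrn had 26.2 and 23.8 RPKM in Wnt1-Ribotag, which fell in the range of the mutant libraries and below both of WT. Its log2 fold change was -0.57 ± 0.16 (-0.98 to -0.16), with a limma adjusted p of 0.196, and -0.30 with the centring.

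Colq was the member that stood above WT, with 5.76 and 4.49 RPKM in Wnt1-Ribotag against 3.55 and 3.42 RPKM. Its log2 fold change was 0.49 ± 0.21 (-0.06 to 1.03; limma adjusted p = 0.293), and 0.32 without Wnt1-Ribotag 1. Ache, whose protein ColQ anchors, lay on the other side of WT with 8.66 and 7.46 RPKM, a log2 fold change of -0.45 ± 0.19 (-0.94 to 0.03; limma adjusted p = 0.280). The ratio of Colq to Ache within a library was 0.664 and 0.603 in Wnt1-Ribotag, against 0.345 and 0.282 in WT and 0.360 and 0.434 in the mutant. That of Colq to Musk was 2.94 and 2.71, against 0.999 and 0.940 in WT and 0.776 and 0.739 in the mutant. Both ratios were higher in the Wnt1-Ribotag libraries than in the 4 of whole muscle, and were chosen after the values were seen.

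**Figure D3:**
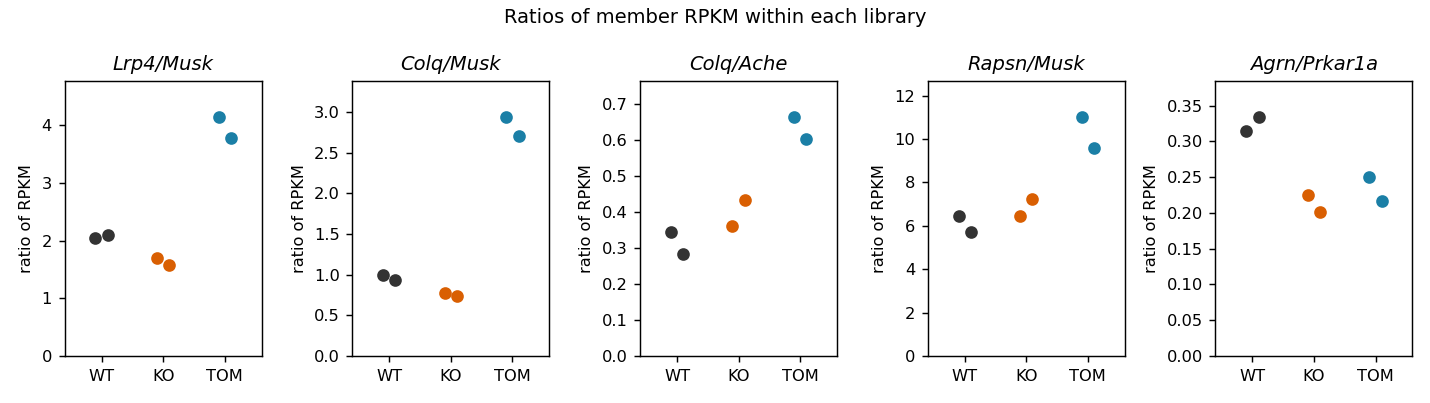
Ratio of the RPKM of pairs of members within each library (linear vertical axes from 0), for erbB3 WT, erbB3 mutant (KO) and Wnt1-Ribotag (TOM) muscle, with a point for each of the 6 libraries. Lrp4, Colq and Rapsn relative to Musk, and Colq relative to Ache, are highest in the Wnt1-Ribotag libraries (Lrp4 to Musk 4.14 and 3.78, at most 2.10 elsewhere), and Agrn relative to Prkar1a is highest in WT at 0.315 and 0.334.

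The remaining members were nearer to WT. Lrp4 had 8.10 and 6.26 RPKM in Wnt1-Ribotag, on either side of WT, with a log2 fold change of -0.06 ± 0.20. Dok7 had 8.57 and 8.71 RPKM, below both WT libraries, with a log2 fold change of -0.30 ± 0.18 (-0.77 to 0.17; limma adjusted p = 0.414), which was -0.17 without WT 5. Rapsn overlapped WT with 21.6 and 15.9 RPKM, a log2 fold change of -0.24 ± 0.21. It was -0.45 without Wnt1-Ribotag 1, -0.023 without Wnt1-Ribotag 2 and -0.057 with the centring. Etv5 lay below WT with 11.7 and 12.1 RPKM (log2 fold change -0.42 ± 0.18; -0.89 to 0.04; limma adjusted p = 0.289), close to its values in the mutant. Nes overlapped WT with 89.7 and 56.5 RPKM, and Prkar1a had 104.8 and 109.6 RPKM, a log2 fold change of -0.10 ± 0.15.

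Leaving out a Wnt1-Ribotag library changed these calls. With Wnt1-Ribotag 1 left out, 5 members passed the threshold, all lower: Musk (-0.93), Agrn (-0.64), Ache (-0.55), Nes (-0.49) and Rapsn (-0.45). With Wnt1-Ribotag 2 left out there were 3, Musk (-0.74) and Agrn (-0.50) lower and Colq (0.65) higher. In those fits the lone library is assumed to vary like the WT pair, and 31.0% and 41.8% of all genes passed too. The Schwann cell and neuron markers moved with the same libraries. The summed RPKM of 14 Schwann cell markers was 218 and 481 in Wnt1-Ribotag against 63.5 and 63.7 in WT, and that of 13 neuron markers 132 and 578 against 16.7 and 78.6. Sums for 3 other kinds of cell were lower in both Wnt1-Ribotag libraries than in WT, at 2021 and 2118 against 2835 and 2795 for 6 connective tissue markers, 6278 and 5821 against 14943 and 7777 for 8 erythroid markers and 42.7 and 36.8 against 48.5 and 53.1 for 7 endothelial markers. That of 10 hepatocyte markers overlapped, at 300.5 and 202.1 against 520.3 and 160.2. Of the defining markers, none was at the floor in all 6 libraries, and the part of these cells in the member differences was not tested.

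The third comparison, Wnt1-Ribotag against mutant muscle, shares its libraries with the other two, which share the WT libraries, and is given for its own values. Again 0 members passed an adjusted p of 0.05 in limma, where 171 of 14325 genes (1.19%) did, and at an unadjusted p under 0.05 there was 1, Colq, against 19.3% of all genes and 11.8% higher. Libraries did not overlap for 2 members that were lower, Musk and Etv5, and for Colq, which was higher, against 24.4% and 29.7% of all genes. Fold changes below 0 were found for 5 members and 47.0% of all genes. Colq had 5.76 and 4.49 RPKM in Wnt1-Ribotag and 3.34 and 1.88 RPKM in the mutant, a log2 fold change of 0.89 ± 0.32 (0.12 to 1.65), with a limma adjusted p of 0.214. It passed the threshold without Wnt1-Ribotag 2 (log2 fold change 1.05, limma adjusted p = 0.0414), in a fit that called 26.0% of all genes, whereas without mutant 2 the fold change was 0.54. Musk had a log2 fold change of -0.73 ± 0.32 (-1.51 to 0.04; limma adjusted p = 0.280), and without mutant 1 of -0.40. Agrn, whose libraries lay below WT in both of these groups, differed between them by 0.03 ± 0.25 (-0.56 to 0.62), and the remaining members had adjusted p between 0.573 and 0.847.

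**Figure D4:**
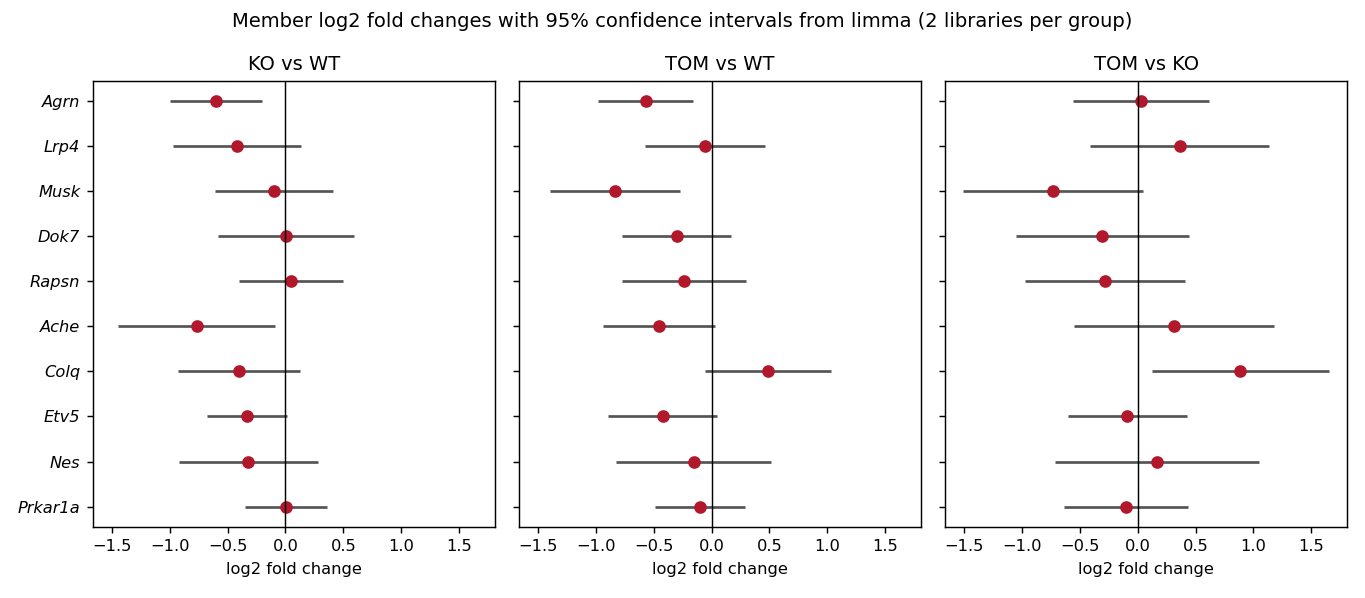
Log2 fold changes (horizontal axes) of the 10 members in the 3 comparisons, KO for erbB3 mutant and TOM for Wnt1-Ribotag. Points are limma estimates on log2(RPKM + 0.5) and bars their 95% confidence intervals, with 2 libraries a group. Intervals lie wholly below 0 for Agrn and Ache in mutant against WT and for Musk and Agrn in Wnt1-Ribotag against WT, and wholly above 0 for Colq in Wnt1-Ribotag against mutant, and 0 members passed the adjusted threshold.

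The acetylcholine receptor, which the pathway gathers, was measured through its 5 subunit genes. Chrng, the subunit of embryonic muscle, had 29.9 and 26.3 RPKM in WT, 38.7 and 15.7 in the mutant and 39.0 and 33.5 in Wnt1-Ribotag, while Chrne, the subunit of mature synapses, was at or below 0.0745 RPKM in all 6 libraries and was not tested. Chrna1, the subunit that binds acetylcholine, had 14.3 and 14.6 RPKM in WT, 20.5 and 16.8 in the mutant and 14.80 and 9.87 in Wnt1-Ribotag. It was higher in both mutant libraries than in WT (log2 fold change 0.35 ± 0.15; limma adjusted p = 0.410). Between single mutant and WT libraries the difference ran from 0.19 to 0.51. Of the 4 subunits tested, Chrna1 was thus the 1 that was higher without overlap in the mutant, beside 12.7% of all genes, and Chrnb1, Chrnd and Chrng overlapped. In Wnt1-Ribotag against WT, 3 of the 4 were higher without overlap, beside 23.3% of all genes. These were Chrng (log2 fold change 0.36 ± 0.18; limma adjusted p = 0.333), Chrnb1 (0.41 ± 0.17; adjusted p = 0.282) and Chrnd (0.23 ± 0.17; adjusted p = 0.496). Chrnb1 had 23.7 and 22.2 RPKM in WT and 28.3 and 33.0 in Wnt1-Ribotag, and Chrnd had 11.5 and 10.7 against 12.6 and 13.5. Against the mutant 1 was lower without overlap, Chrna1, beside 24.4% of all genes. No subunit passed the threshold in any comparison. Beyond Chrna1 in the mutant, 0 subunits had an unadjusted p under 0.05 by limma.

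Other genes of the pathway and the synapse were read from a list of 56, of which 55 had values. In mutant against WT muscle 0 of 53 tested passed the adjusted threshold by limma. At an unadjusted p under 0.05 there were 5 that were lower and 1 that was higher, a share near the 9.66% lower and 12.0% in either direction of all genes. The lowest log2 fold changes were those of Hspg2 (-0.71 ± 0.27), the perlecan to which ColQ attaches, Lrp5 (-0.66 ± 0.26), a relative of Lrp4, and Prss12 (-0.62 ± 0.24), the protease neurotrypsin that cleaves agrin. Hspg2 had 35.1 and 31.4 RPKM in WT and 28.0 and 14.3 RPKM in the mutant, and Lrp5 had 15.8 and 16.4 against 13.8 and 7.14. Mutant 2 was the lowest library for both and decided the size of these values: without it the fold changes were -0.24 for Hspg2, -0.21 for Lrp5 and -0.38 for Prss12, and without mutant 1 they were -1.19, -1.12 and -0.87. The value of Prss12 was also -0.36 without WT 5. Of the 55 genes with values, 44 were lower in mutant 2 than in mutant 1, against 60.4% of 14052 genes. The highest was Dtna (0.56 ± 0.18), the dystrobrevin that stabilizes receptor clusters, and Bche was at 0.11. Dtna had 2.15 and 1.99 RPKM in WT and 3.81 and 2.84 RPKM in the mutant, and its fold change was 0.38 without mutant 1 and 0.75 without mutant 2. Below 0 were 46 of the 53, against 67.0% of all genes, and the median was -0.21.

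In the comparisons with Wnt1-Ribotag, Prima1 and Nova2 passed the filter on low values only through the Wnt1-Ribotag libraries, so that they had to be higher there. They are given by their levels, and the counts and medians below are without them, a choice made after the values were seen. In Wnt1-Ribotag against WT, 0 of the other 53 passed by limma, and 11 that were lower and 4 that were higher had an unadjusted p under 0.05, where 11.3% of all genes were lower and 19.5% passed in either direction. The lowest were Nid2 (-1.27 ± 0.17), a nidogen of the basal lamina, Abl2 (-1.20 ± 0.22), a kinase downstream of MuSK, and Nrg1 (-0.98 ± 0.27), the neuregulin. Nid2 went from 91.9 and 78.8 RPKM in WT to 35.6 and 34.3 RPKM. The highest were Prss12 (1.56 ± 0.28), Bche (1.35 ± 0.26) and Ncam1 (0.68 ± 0.19), a cell adhesion molecule of nerve and muscle. Prima1, the membrane anchor of acetylcholinesterase, had 1.32 and 5.10 RPKM in Wnt1-Ribotag, 0.289 and 0.564 in WT and 0.0065 and 0.038 in the mutant. Bche, butyrylcholinesterase, which hydrolyses acetylcholine too, had 17.0 and 11.5 RPKM in Wnt1-Ribotag, against 4.50 and 5.94 in WT and 5.12 and 6.19 in the mutant. Bche was thus higher in the Wnt1-Ribotag libraries than in each of the other 4. Nova2, a splicing factor of neural agrin, had 1.62 and 1.63 RPKM in Wnt1-Ribotag, 0.361 and 0.495 in WT and 0.367 and 0.242 in the mutant. The median over the 53 genes was -0.04. With Wnt1-Ribotag 1 or Wnt1-Ribotag 2 left out, 21 of the 53 passed in each case, where 31.0% and 41.8% of all genes did.

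Against the mutant, Prss12 was higher in Wnt1-Ribotag and was the only 1 of the 53 to pass the threshold, which 1.19% of all genes did. It had 6.71 and 9.23 RPKM in Wnt1-Ribotag, 1.69 and 1.06 in the mutant and 2.91 and 1.88 in WT. The log2 fold change was 2.18 ± 0.30 (1.45 to 2.91), with a limma adjusted p of 0.0323. Without mutant 2, and without a filter on low values, it did not pass, and 0 genes of the list did. With Wnt1-Ribotag 1 left out 9 of 52 passed, and with Wnt1-Ribotag 2 left out 9 of 53, where 17.8% and 26.0% of all genes did. Bche (1.24 ± 0.27; limma adjusted p = 0.101) and Ncam1 (1.13 ± 0.27; adjusted p = 0.117) had the other 2 of the 3 highest fold changes and did not pass, and Nid2 (-1.04), Abl2 (-0.82) and Nrg1 (-0.79) were lowest. With the library number added to the fit as a block, 4 of the 53 passed, Prss12, Bche, Ncam1 and Nid2, where 842 of 14325 genes did. The plot of the pathway genes shows the widest fold changes, from -1.27 to 2.18, in the comparisons with Wnt1-Ribotag.

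**Figure D5:**
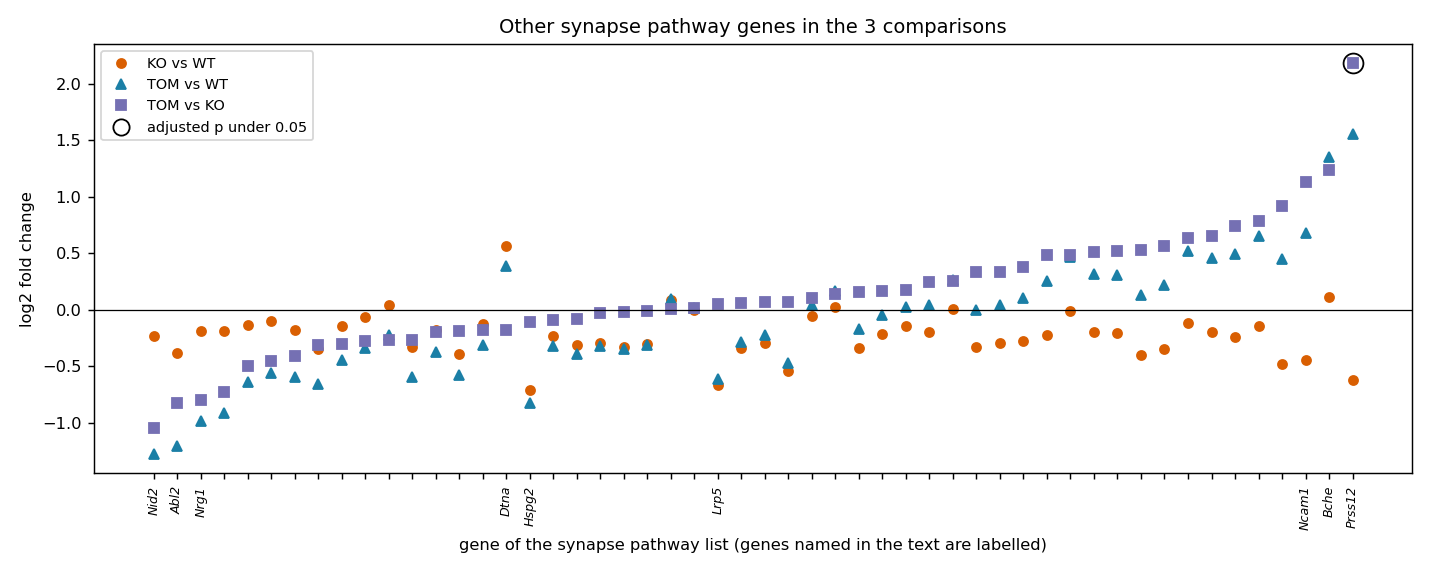
Log2 fold changes (vertical axis) of other synapse pathway genes (horizontal axis, ordered by Wnt1-Ribotag against mutant, with labels for genes named in the text) in the 3 comparisons, KO for erbB3 mutant and TOM for Wnt1-Ribotag. Prima1 and Nova2 are left out because they passed the filter through the Wnt1-Ribotag libraries alone. A ring marks the gene past the adjusted threshold, Prss12 at 2.18, and the mutant against WT values lie between -0.71 and 0.56.

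Genes whose pattern over the 6 libraries was most like that of a member are given as a description, by Pearson's r of log2 values over 14320 genes, where library depth, muscle content and the length and GC pattern of mutant 2 are shared by all points. For Agrn they were Pdgfrb (r = 0.999), the growth factor receptor of vessel mural cells, Adgrl2 (0.993) and Hdac5 (0.993). Pdgfrb had 20.4 and 21.9 RPKM in WT, 15.2 and 9.97 in the mutant and 13.8 and 12.1 in Wnt1-Ribotag. For Musk they included Mir3071 (0.991) and Aldoa (0.991), the glycolytic aldolase of muscle. Mir3071 had 0.949 and 0.929 RPKM in WT, 1.54 and 0.360 in the mutant and 0.0970 and 0.0695 in Wnt1-Ribotag, so that its r rests on low values. For Etv5 they were Fntb (0.995), the gene ENSMUSG00000048365 without a symbol here (0.990) and Gtf2h4 (0.987).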

How the data were processed

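For each of the 6 libraries the authors deposited an RPKM column, scaled by them for gene length and depth, and a flag column of 0 or 1 that marks genes at the floor value. STAR and the build mm9 are named in the submitters' processing notes, without versions, and the counting program is not given in the sources used here. Each table had 23076 entries, 3 of them without a value. Groups and replicate numbers came from the labels. Gene symbols and coordinates were looked up by Ensembl identifier in GENCODE release M21 (GRCm38; 21583 matched, 1490 did not), and promoters from RefSeq (GRCm38.p6).

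RPKM were transformed to log2(RPKM + 0.5), so that fold changes of low genes are understated. Genes whose RPKM averaged 0.5 or more across the 4 libraries compared were tested with limma 3.58.1 in R 4.3.3 (lmFit, and eBayes with a trend), with Benjamini-Hochberg adjustment over all genes. The threshold was 0.05, and each fit held its own 4 libraries alone. With 2 libraries a group, p-values measure only the spread between these libraries. The procedure was tested on simulated data. Depth was taken from the floor values of 223 microRNA genes, read as 1 read over the gene's length plus 2 bases, which gave 81.2% of them the same depth. Counting errors were not computed, since the files hold no counts.

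The members and lists were chosen with earlier results of these data known. The genes named are the 10 members, Erbb3 and Sox10 as checks, the receptor subunits, the pathway genes past the threshold with the 3 highest and 3 lowest per comparison (Prima1 and Nova2 set apart), and the 3 genes most like Agrn, Musk and Etv5, with results for a few genes not reported here. As alternatives the pseudocount was set to 0.1 or 1, the filter was dropped or raised to 1, libraries were scaled by median ratios, all 6 were fitted together, a replicate block was added, and each library was left out. The centring by length and GC content (25 cells) was added after the data were seen. Python 3.11.15, pandas 2.3.3, numpy 2.4.6 and matplotlib 3.10.9 were used.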

Additional observations from a re-analysis of the deposited data

How the results depend on the processing

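Over the alternatives that keep all libraries, 213 of 220 member values kept their direction and their side of the threshold, 7 changed sign and 0 passed the threshold, the lowest adjusted p (limma) being 0.0962. Of the 7, Nes in mutant against WT was -0.32 before the change and Nes in Wnt1-Ribotag against mutant 0.17. After it, with median-ratio scaling, Agrn in Wnt1-Ribotag against mutant was -0.0039 and Lrp4 in Wnt1-Ribotag against WT 0.012, and with centring by length and GC, chosen after seeing the data, Agrn was -0.042 and Nes -0.058 in Wnt1-Ribotag against mutant, Lrp4 0.022 in Wnt1-Ribotag against WT, and Musk 0.021 and Nes 0.0052 in mutant against WT.

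Genes past the threshold in mutant against WT were 24, and 0 without a filter, 43 with scaling (19 higher and 24 lower, where the 24 were 7 and 17), 0 in a fit of all 6 libraries, 4 with the centring (2 and 2) and 10 to 106 with a library left out. In Wnt1-Ribotag against WT they were 1, and 0, 2, 138, 2 and 26 to 5965 in the same order. In Wnt1-Ribotag against mutant they were 171, 146 of them higher and 25 lower. Without a filter they were 112, 13 higher and 99 lower, and only 3 of the 171 were among them. They were 692 in a fit of all 6, 73 with the centring and 112 to 3672 with a library left out. The cause was not tested.

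With a library left out, members past the threshold ranged from 0 to 5 in Wnt1-Ribotag against WT, 0 to 1 in Wnt1-Ribotag against mutant and 0 to 0 in mutant against WT. Pathway genes, here with Prima1 and Nova2, ranged from 0 to 23, 0 to 11 and 0 to 0, and without this pair from 0 to 21, 0 to 9 and 0 to 0. In Wnt1-Ribotag against mutant 0 pathway genes passed without a filter, where 112 of 23073 genes did. In a fit of all 6 there were 7 of 55 (5 of 53 without the pair), where 692 of 14325 genes passed. Leaving out libraries also changed the sign of member values. In mutant against WT the range was -0.40 to 0.41 for Dok7, -0.43 to 0.23 for Musk, -0.76 to 0.12 for Nes, -0.16 to 0.16 for Prkar1a and -0.24 to 0.34 for Rapsn. In Wnt1-Ribotag against WT it was -0.23 to 0.12 for Lrp4 and -0.49 to 0.18 for Nes. In Wnt1-Ribotag against mutant it was -0.19 to 0.82 for Ache, -0.21 to 0.26 for Agrn, -0.72 to 0.10 for Dok7, -0.025 to 0.75 for Lrp4, -0.28 to 0.61 for Nes, -0.26 to 0.056 for Prkar1a and -0.57 to 0.0056 for Rapsn.

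Wnt1-Ribotag and mutant libraries share the numbers 1 and 2. Over the genes tested, the difference of library 1 from library 2 in the mutant correlated at 0.168 with that in Wnt1-Ribotag. With 1 such difference per group, this cannot tell whether the numbers mark a shared step, and the labels name none. A replicate block put 842 of 14325 genes, 5 of 55 pathway genes and 0 members past the threshold. The 5 were Nid2, Bche, Prss12, Ncam1 and, kept by the filter through Wnt1-Ribotag alone, Prima1. The study compared WT with mutant samples by number, 1 with 1 and 2 with 2, whereas the WT libraries are labelled 5 and 6. Which of them is which is not given in the sources used here, and no paired analysis was made for WT. The read numbers behind the members are estimates that bear on counting error only, since reads of amplified libraries are not independent molecules, and whether depth limits a member was not tested.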
